A study of Homo sapiens with 6 samples.

Results

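The genes described here are 10 transcriptional targets of p53 whose products promote or modulate cell death: BAX, BBC3, PMAIP1, FAS, TNFRSF10B, AEN, TP53I3, TP53INP1, PHLDA3 and PLK2. They were chosen by symbol for their place in the p53 pathway, with earlier results of these data known, and all 10 were found among the 19923 protein-coding genes of the count tables. The tables hold read counts from sequencing of poly(A) RNA of Kelly cells, an established MYCN-amplified human neuroblastoma line, collected 72 hours after transfection. One group of 3 libraries received control siRNA (siControl) and the other group of 3 siRNA against METTL3 (siMETTL3), of which the labels do not give the number of sequences. The cells of both groups are listed as wild type, and siRNA was delivered transiently with a lipid reagent. METTL3 encodes the methyltransferase that writes m6A, a methylated adenosine, into mRNA, and the comparison asks what lowering it does to the transcriptome.

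p53 is a transcription factor that is stabilised by DNA damage and other stresses and then binds DNA at paired copies of a short consensus. Its apoptotic targets act at different levels. BBC3 (PUMA) and PMAIP1 (NOXA) are BH3-only proteins that bind and neutralise anti-apoptotic BCL2 relatives, and BAX is the pore-forming protein that permeabilises the outer mitochondrial membrane. FAS and TNFRSF10B (DR5) are cell surface death receptors that recruit FADD and caspase-8. AEN, TP53I3 and TP53INP1 encode a nuclease, a quinone oxidoreductase and a stress-induced regulator of p53 and autophagy. PHLDA3 and PLK2 act on kinase signalling, PHLDA3 as a repressor of AKT and PLK2 as a polo-like kinase.

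Promoter sequence was available for 7 of the 10 genes in the RefSeq table used here (GRCh38.p14), in 9 windows of 300 bases that each run from 250 bases before to 50 bases after an annotated start. The p53 consensus was searched as 2 adjacent 10-base copies (3 purines, C, 2 letters that are A or T, G, 3 pyrimidines) with at most 2 mismatches, none of them in the C or G of either copy. This consensus reads the same on both strands. Such a match was present in 0.285% of all 35116 windows, and in the windows of AEN and FAS. The E-box CACGTG, which is its own reverse complement and is bound by MYC, MYCN and other basic helix-loop-helix factors, was present in 7.26% of all windows. It was found in those of BAX, BBC3 and AEN. The BAX window held 4 copies, a number reached in 0.0142% of all windows. The 3 stretches below are shown because they carry these matches, which stand in capitals. The AEN and BAX stretches end where the counted span of the gene begins, so that 2 of the 4 BAX copies and the AEN E-box are not in them.
AEN promoter, chr15:88621090-88621336, plus strand: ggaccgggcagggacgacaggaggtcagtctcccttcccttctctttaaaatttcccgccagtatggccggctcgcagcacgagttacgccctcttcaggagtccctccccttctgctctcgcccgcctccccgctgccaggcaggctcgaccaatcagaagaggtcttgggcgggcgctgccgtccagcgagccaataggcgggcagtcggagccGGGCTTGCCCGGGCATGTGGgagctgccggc
FAS p53 match, chr10:88991309-88991328, plus strand, in intron 1 of the canonical transcript and in an exon of another: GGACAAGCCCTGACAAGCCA
BAX promoter, chr19:48954625-48954814, plus strand: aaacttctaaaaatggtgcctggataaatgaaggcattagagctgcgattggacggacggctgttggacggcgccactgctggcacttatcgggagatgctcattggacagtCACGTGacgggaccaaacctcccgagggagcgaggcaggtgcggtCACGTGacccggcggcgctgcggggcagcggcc

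Positions are in bases from the annotated start, negative before it. The AEN match was centred at -24, and the FAS match at -112 from the third of the 3 annotated FAS starts. In both, the first 10-base copy was perfect (GGGCTTGCCC in AEN, GGACAAGCCC in FAS) and the second held the 2 mismatches. A perfect lone 10-base copy, present in 6.63% of all windows, was also found in the PLK2 window, centred at -127 (AGACTTGCTT). The 4 E-boxes of BAX were centred at -135, -90, -42 and -11, that of BBC3 at -229 and that of AEN at 11, in exon 1. PMAIP1 and TP53I3 had neither motif in their windows. The motif TGATGNAA (both strands), a core of the element bound by ATF4 and CHOP, was present in 3.62% of all windows and in 0 of the 9. A match describes the letters only, and binding was not measured. Sites outside the windows or with bases between the 2 copies were not searched. A window without a match therefore does not show that the gene lacks a p53 site.

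**Figure D1:**
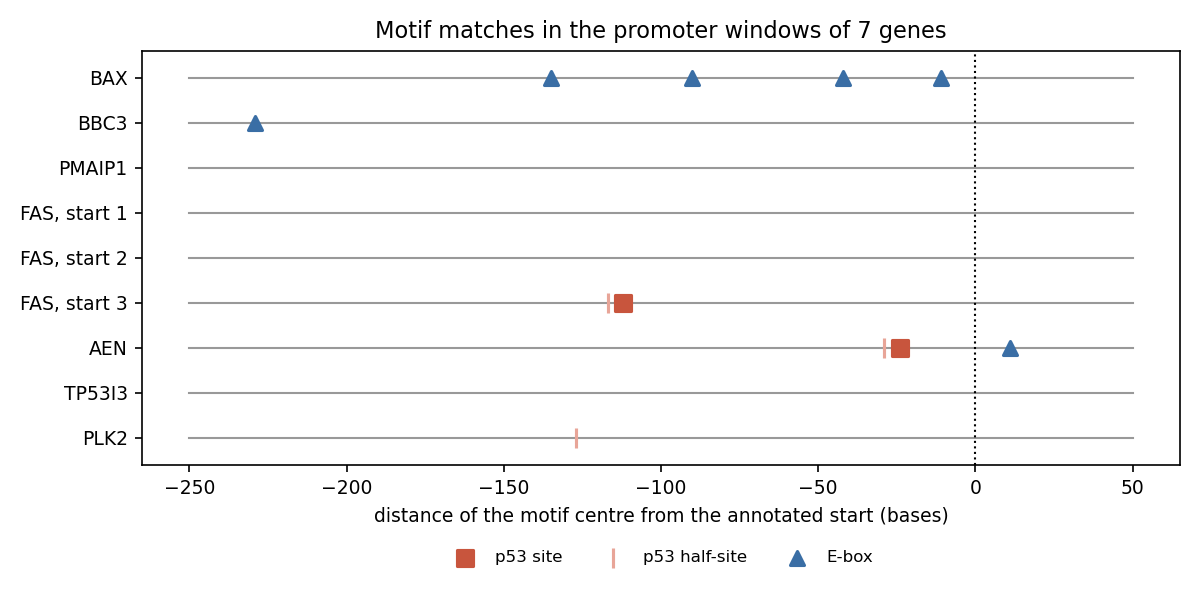
Motif matches in the 9 RefSeq promoter windows of 7 genes. Each line is 1 window; the horizontal axis gives the distance of the motif centre from the annotated start in bases, squares mark the p53 consensus in 2 adjacent copies, vertical ticks perfect lone 10-base copies (in AEN and FAS the first copy of the full match), and triangles the E-box. BAX holds 4 E-boxes, and the full p53 match appears in AEN and in 1 of the 3 FAS windows.

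Library totals ranged from 15430000 counts (siControl replicate 3) to 21565013 (siMETTL3 replicate 2). The first principal component of log2 CPM (counts scaled by library size), with 60.8% of the variance, separated the groups, and siControl replicate 3 lay farthest from the siMETTL3 libraries. METTL3, the targeted gene, had 53.5, 52.8 and 56.2 CPM in siControl and 32.99, 31.8 and 34.3 CPM in siMETTL3. Counted over its whole span, introns included, 61.0% of its control level remained (log2 fold change -0.71, SE 0.070, edgeR FDR 4.68e-06). Mature METTL3 mRNA was not counted apart, and its protein was not measured here. CPM values are relative to TMM-scaled library sizes, and FDR is the Benjamini-Hochberg value of edgeR's quasi-likelihood test over all 15311 genes that passed the filter on low counts. The labels call the libraries replicates without naming separate cultures, so p-values measure the spread between these samples, which may be technical. Of the markers of sympathetic neuroblastoma, all 8 were tested, 5 rose and 1 fell, and their summed level was 4964 to 5484 CPM in siControl and 7417 to 7843 CPM in siMETTL3. Of 11 markers of blood, endothelial, epithelial, fibroblast and Schwann cells, 10 were matched, and their summed level was 10.3 to 13.96 CPM in siControl and 13.93 to 15.02 CPM in siMETTL3. Of the 5 that could be tested, 1 (COL1A1) rose, a call lost in 3 of the fits that left out a library (FDR up to 0.0805), and KRT5 had 0 counts in every library. The part of either marker group in the results below was not tested.

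All 10 genes passed the filter and all 10 were lower in siMETTL3 at an FDR under 0.05, against 19.2% of all tested genes. Since the genes were chosen with earlier results known, this count describes them and is no independent evidence of a direction. In all 10 the highest siMETTL3 library lay below the lowest siControl library, which held for 25.1% of all tested genes. The median log2 fold change of the 10 was -0.95, beside -0.0021 over all tested genes. None was higher, against 18.6% of all tested genes called higher. The falls were at least 2-fold in 4 (PLK2, PHLDA3, TP53INP1 and BBC3), against 0.607% of all tested genes. The CPM of the 10 genes together added up to 584, 576 and 585 in siControl and to 355, 359 and 352 in siMETTL3. In bulk RNA, fewer cells expressing a gene and less of its RNA per cell cannot be told apart.

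**Figure D2:**
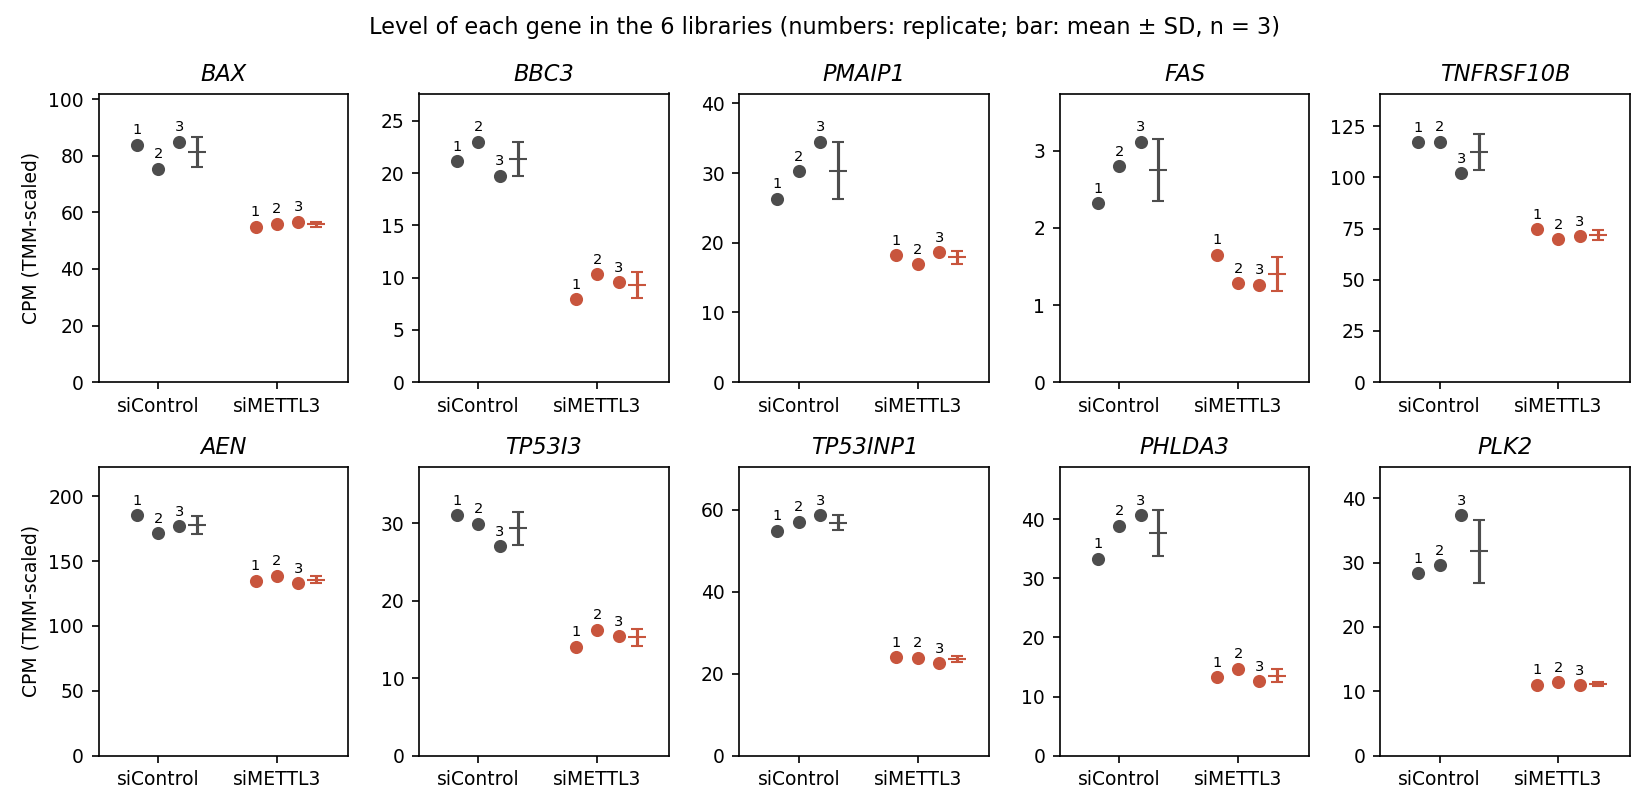
Level of each of the 10 genes in every library, in TMM-scaled CPM on linear axes that start at 0. Points are libraries with their replicate number, and the bar beside them is the mean ± SD of 3 libraries. In each panel the 3 siMETTL3 libraries lie below all 3 siControl libraries.

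In the mitochondrial arm, both BH3-only genes and BAX fell, with the lowest log2 fold change in BBC3. BBC3 (chr19:47220822-47232766, minus strand) was measured at 21.1, 23.0 and 19.8 CPM in siControl and at 7.92, 10.3 and 9.54 CPM in siMETTL3. The groups were well apart, and the least of the siMETTL3 values came from replicate 1. The log2 fold change of BBC3 was -1.20 (SE 0.12, edgeR FDR 5.19e-06), which left 43.5% of the control level. PMAIP1 (chr18:59899948-59904306, plus strand) was at 26.3, 30.2 and 34.5 CPM in siControl and at 18.2, 16.9 and 18.6 CPM in siMETTL3. Its siControl libraries spread widely, with replicate 3 the highest, while its siMETTL3 libraries stayed close together. PMAIP1 had a log2 fold change of -0.76 (SE 0.10, edgeR FDR 9.10e-05), with 59.2% of the control level left. BAX (chr19:48954815-48961798, plus strand), the effector that BH3-only proteins set free or activate, was at 83.9, 75.4 and 85.0 CPM in siControl and at 55.0, 55.9 and 56.7 CPM in siMETTL3. The siMETTL3 values of BAX lay close together. BAX had a log2 fold change of -0.54 (95% interval -0.68 to -0.40, edgeR FDR 2.77e-05) beside -1.20 for BBC3 (interval -1.46 to -0.95). The difference between genes was not tested, but these 2 intervals do not overlap, while that of PMAIP1 (-0.98 to -0.53) overlaps both.

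Both death receptor genes fell as well. TNFRSF10B (chromosome 8, 23020133 to 23069031, minus strand), a receptor for the ligand TRAIL, was at 117.2, 117.5 and 102.0 CPM in siControl and at 74.7, 69.8 and 71.3 CPM in siMETTL3. Its siControl replicate 3 was the lowest control library and still lay well above every siMETTL3 library. The log2 fold change was -0.64 (SE 0.067, edgeR FDR 8.71e-06). FAS (chr10:88990531-89017059, plus strand) was expressed at a low level, with raw counts of 50, 56 and 47 in siControl and of 34, 28 and 26 in siMETTL3. These corresponded to 2.32, 2.80 and 3.12 CPM and to 1.65, 1.29 and 1.27 CPM. The groups did not overlap, but counting error is largest here, and the interval of the log2 fold change of -0.96 went from -1.51 to -0.40 (edgeR FDR 0.00987). FAS shares 809 bases, 3.05% of its span, with ACTA2 on the opposite strand, and reads there were counted for both genes. ACTA2, which encodes smooth muscle actin, had 116 to 338 counts and fell too (log2 fold change -1.31, edgeR FDR 6.20e-06). How many FAS counts were shared with it was not tested.

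Among the genes with other roles, TP53INP1 changed the most. TP53INP1 (chromosome 8, 94925972 to 94949378, minus strand) was at 54.9, 57.1 and 58.7 CPM in siControl and at 24.1, 23.9 and 22.6 CPM in siMETTL3. It was the least variable of the 10 genes in siControl, with a coefficient of variation of 3.39%. Its log2 fold change was -1.27 (SE 0.072, edgeR FDR 3.27e-08), the smallest FDR of the 10. TP53I3 (chr2:24077433-24085861, minus strand) was at 31.1, 29.9 and 27.0 CPM in siControl and at 14.1, 16.3 and 15.4 CPM in siMETTL3. Its groups were far apart, with a log2 fold change of -0.94 (SE 0.095, edgeR FDR 6.32e-06) and 51.9% of the control level left. AEN (chr15:88621337-88632281, plus strand) was at 185, 171 and 177 CPM in siControl and at 135, 139 and 133 CPM in siMETTL3. It showed the smallest fall of the 10, with a log2 fold change of -0.39 (SE 0.055, edgeR FDR 0.000111) and 76.3% of the control level left. Per kilobase of counted span, introns included, AEN had the highest level of the 10 in siControl (16.2 CPM per kb) and FAS the lowest (0.104 CPM per kb).

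TP53I3 and TP53INP1 lie wholly inside a gene on the opposite strand, FAM228B and NDUFAF6, and reads were counted without strand for every gene they touch. Each count of TP53I3 was therefore also a count of FAM228B, and each of TP53INP1 also one of NDUFAF6. The part of the FAM228B level that lay outside TP53I3 was 12.5 to 13.4 CPM in siControl and 14.2 to 17.2 CPM in siMETTL3. It was thus higher in siMETTL3, whereas FAM228B as counted was lower (log2 fold change -0.43, edgeR FDR 0.000961). The same subtraction for NDUFAF6 gave 86.0 to 93.1 CPM in siControl and 112.3 to 114.8 CPM in siMETTL3, while NDUFAF6 as counted did not pass the threshold (log2 fold change -0.10, edgeR FDR 0.166). Outside the shared span, neither partner gene fell. Reads of the partner genes inside the span cannot be told apart from those of TP53I3 and TP53INP1. TNFRSF10B shares 67 bases with RHOBTB2, which rose (log2 fold change 0.32, edgeR FDR 0.00711). The other 6 genes, BAX, BBC3, PMAIP1, AEN, PHLDA3 and PLK2, overlap no gene of the table.

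PLK2 and PHLDA3 fell the most of the 10. PLK2 (chr5:58453982-58460139, minus strand) was at 28.3, 29.6 and 37.4 CPM in siControl and at 11.03, 11.4 and 10.9 CPM in siMETTL3. Its control level was the most variable of the 10, with a coefficient of variation of 15.4% against 2.49% in siMETTL3, because siControl replicate 3 stood above the other 2. The log2 fold change was -1.51 (SE 0.11, edgeR FDR 4.78e-07), or 35.2% of the control level. PHLDA3 (chr1:201464278-201469237, minus strand) was at 33.3, 38.9 and 40.7 CPM in siControl and at 13.3, 14.7 and 12.6 CPM in siMETTL3. Its log2 fold change was -1.47 (SE 0.10, edgeR FDR 2.06e-07), or 36.0% of the control level. Counted from the lowest log2 fold change of all 15311 tested genes, PLK2 stood at rank 25, PHLDA3 at 29, TP53INP1 at 51 and BBC3 at 59, while BAX stood at 706 and AEN at 1574.

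**Figure D3:**
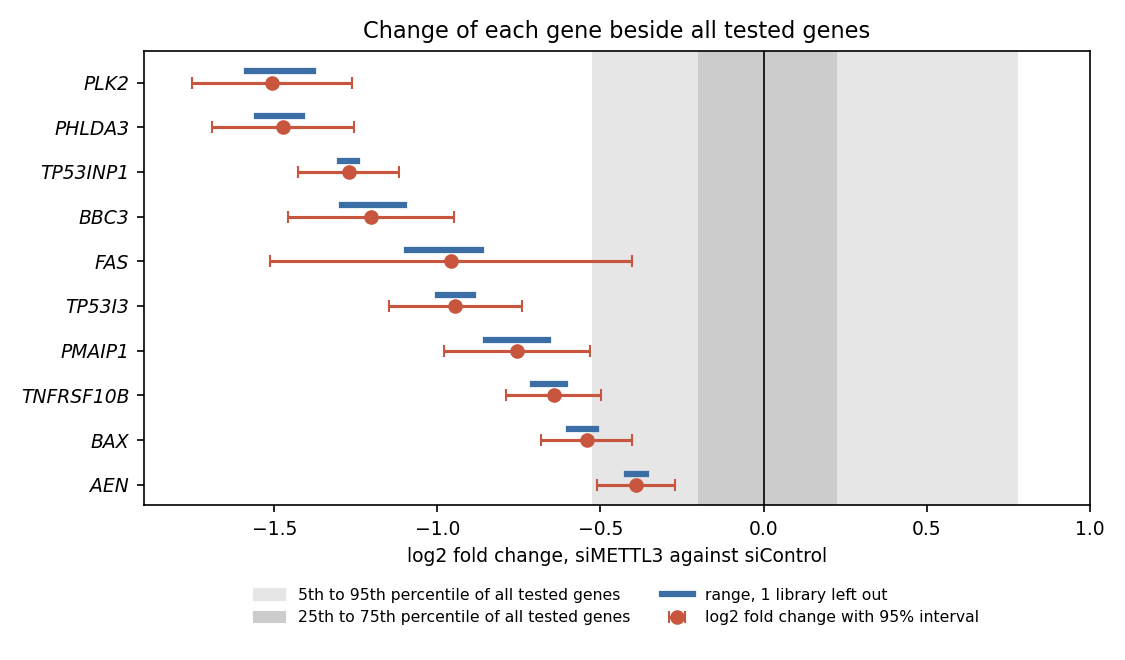
Log2 fold change of each gene, siMETTL3 against siControl, with its 95% interval (points and thin bars) and the range of values when 1 library was left out in turn (thick bars). The grey bands span the 25th to 75th (-0.20 to 0.22) and the 5th to 95th (-0.52 to 0.78) percentile of all tested genes. The point estimates of 9 genes lie below the 5th percentile, and that of AEN lies at -0.39.

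The 10 genes did not order the control libraries in the same way. siControl replicate 3, the shallowest library, was the highest control library for 6 of them (BAX, PMAIP1, FAS, TP53INP1, PHLDA3 and PLK2) and the lowest for 3 (BBC3, TNFRSF10B and TP53I3). The median coefficient of variation of the 10 was 7.77% in siControl and 4.28% in siMETTL3. Without siControl replicate 3, all 10 genes were still lower at an FDR under 0.05. PLK2, the gene in which this library stood out most, then had a log2 fold change of -1.38.

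Among the regulators of p53, MDM2 fell. MDM2, the ubiquitin ligase that degrades p53 and is itself a p53 target, was at 188, 198 and 180 CPM in siControl and at 149, 147 and 153 CPM in siMETTL3 (log2 fold change -0.33, edgeR FDR 0.000463). The groups did not overlap, and the span of MDM2 overlaps that of the carboxypeptidase M gene. Of the 12 genes of the p53 family and its regulators, 6 fell and 2 rose. Over all tested genes, 19.2% were called lower and 18.6% higher. The median log2 fold change of the 12 was -0.17. Some of the falls, MDM2 and PPM1D not among them, lost their call when a library was left out (FDR up to 0.0753). PPM1D, a phosphatase that dampens p53 signalling, fell (log2 fold change -0.30, edgeR FDR 0.00119). TP73, a p53 relative that can bind the same DNA consensus, went from 4.96 ± 1.16 to 9.30 ± 0.294 CPM (SD, n = 3) and rose (log2 fold change 0.89, edgeR FDR 0.000851), and its span overlaps WRAP73.

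Among 18 p53 targets with roles in cell cycle arrest, repair and metabolism, 17 were tested, 12 fell and 0 rose. The shares over all tested genes were 19.2% called lower and 18.6% called higher. The median log2 fold change of the 17 was -0.58. A call among the 12 falls was lost when some libraries were left out (FDR up to 0.0779). ZMAT3, CDKN1A, RRM2B and FDXR had the smallest FDR. CDKN1A, the p21 inhibitor of cyclin-dependent kinases, had a log2 fold change of -1.02 and ZMAT3, a zinc finger RNA-binding protein, of -0.98 (edgeR FDR 1.66e-07 and 5.75e-08). RRM2B, a ribonucleotide reductase subunit, and FDXR, ferredoxin reductase, had log2 fold changes of -0.90 and -0.81. The targets that did not pass included GADD45A (log2 fold change -0.22, edgeR FDR 0.142) and DDB2 (0.17, FDR 0.206).

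Of a further 12 apoptosis genes that have been reported as p53 targets, 8 were tested, 3 fell, 2 rose and 3 did not pass the threshold, beside 19.2% of all tested genes called lower and 18.6% called higher. Their median log2 fold change was -0.16. PIDD1, a death domain protein that activates caspase-2, fell from 19.3 ± 2.43 to 12.0 ± 1.18 CPM (SD, n = 3; log2 fold change -0.69, edgeR FDR 0.00053), with a span that overlaps PANO1. STEAP3, a metalloreductase, rose (0.37, FDR 0.00560). SIVA1 was lower (-0.25, FDR 0.0195) and APAF1, the core of the apoptosome, higher (0.24, FDR 0.0247). Both calls were lost when some libraries were left out, with FDR up to 0.0646 for SIVA1 and 0.0838 for APAF1. The span of APAF1 overlaps ANKS1B. The fall not named here also lost its call in some alternative fits (FDR up to 0.167). PERP, TP53AIP1, TNFRSF10A and TNFRSF10D were too low to be tested.

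The next lists hold genes for proteins that the 10 gene products act on or with, and their counts are to be read beside the 19.2% of all tested genes called lower and the 18.6% called higher. Of 9 genes of the death receptor pathway, 6 were tested, 1 rose and 0 fell. The gene that rose was CASP8, the initiator caspase downstream of both receptors, from 1.48 ± 0.252 to 2.95 ± 0.427 CPM (SD, n = 3; log2 fold change 1.00, edgeR FDR 0.00706). The ligand gene FASLG had 0 counts in every library and TNFSF10, which encodes TRAIL, had 0 to 10. FADD, the adaptor of FAS and TNFRSF10B, was at 16.3 ± 2.64 and 16.1 ± 2.30 CPM (SD, n = 3; edgeR FDR 0.897). Of 13 BCL2 family genes outside the 10, 12 were tested, 2 fell, 3 rose and 7 did not pass the threshold, with a median of -0.064, and these counts are near the shares over all tested genes. MCL1, an anti-apoptotic protein that PMAIP1 binds, fell (log2 fold change -0.32, edgeR FDR 0.00193). BCL2 was lower (-0.27) and BCL2L1, BAK1 and BAD were higher (0.26, 0.33 and 0.31). However, each of these 4 lost its call in 2 or 3 of the fits that left out a library. Their FDR reached 0.0920, 0.0921, 0.0750 and 0.0935, and the span of BAD overlaps GPR137.

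Of 14 genes of the apoptosome, the caspases and their inhibitors, 13 were tested, 4 fell and 3 rose. Their median log2 fold change was -0.052. Some calls, those of CASP9, ENDOG, DIABLO and HTRA2 not among them, were lost when a library was left out (FDR up to 0.136). CASP9, the initiator caspase that APAF1 activates, rose from 9.83 ± 1.01 to 18.3 ± 0.636 CPM (SD, n = 3; log2 fold change 0.89, edgeR FDR 3.53e-05). ENDOG, a mitochondrial nuclease, fell (-0.77, FDR 6.21e-06), as did DIABLO and HTRA2, which are released from mitochondria and bind inhibitors of caspases (-0.35 and -0.31). The spans of these 4 genes overlap other genes, so their counts can include reads of their neighbours.

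BBC3, PMAIP1 and TNFRSF10B are also known as targets of the integrated stress response, whose transcription factors are ATF4 and CHOP (DDIT3). Of 9 genes of that response, 8 fell and 0 rose, beside 19.2% of all tested genes called lower and 18.6% called higher. Their median log2 fold change was -0.81. ATF4 was at 264, 271 and 269 CPM in siControl and at 149, 146 and 156 CPM in siMETTL3 (log2 fold change -0.84, edgeR FDR 1.17e-07). CHAC1, which degrades glutathione, had a log2 fold change of -1.80, ATF3, a stress-induced transcription factor, of -1.26, and ASNS, asparagine synthetase, of -1.03. DDIT3, named here for its role and not for its rank, had a log2 fold change of -0.78 (edgeR FDR 0.000406). SESN2 belongs both to this list and to the p53 targets above. Other genes, such as PPM1D and APAF1, are also shared between lists. The part of the stress response in the levels of BBC3, PMAIP1 and TNFRSF10B was not tested. The medians of these lists describe them and are no test of a difference between lists.

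**Figure D4:**
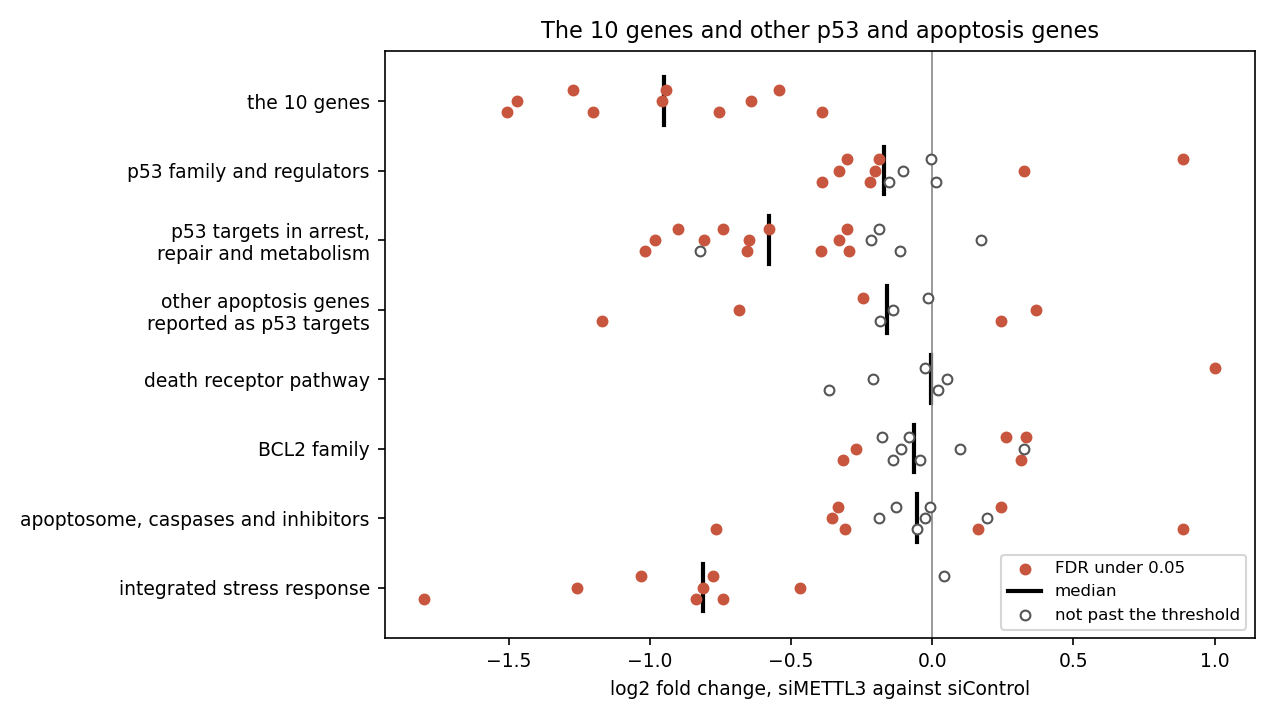
Log2 fold change, siMETTL3 against siControl, of the 10 genes and of 7 other lists of p53, apoptosis and stress response genes. Each point is a tested gene, filled where the FDR was under 0.05, vertical bars are list medians, and the height within a row only separates points. The 10 genes lie left of 0 with a median of -0.95, the arrest targets and stress response genes have medians of -0.58 and -0.81, and the BCL2 family and apoptosome lists are spread around 0.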

How the data were processed

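The deposited values are raw read counts per gene, 1 table per library. The authors counted reads with featureCounts 1.5.3, per the file headers, on a GENCODE release 33 protein-coding annotation, with the whole gene as the counted feature, so introns are included. Reads over several genes were counted for each, and no strand or fragment option was set. Per the submitters' processing notes, FastQC 0.11.5, Trimmomatic 0.36, HISAT2 2.1.0 and the build GRCh38 were used. Coordinates are those of the tables. Genes were filtered with filterByExpr, TMM-scaled and tested with edgeR 4.0.16 (R 4.3.3; robust quasi-likelihood F-test, 6 libraries, no covariate), with Benjamini-Hochberg adjustment over 15311 genes and a threshold of 0.05. SE was derived from the log2 fold change and F (its size over the root of F), and 95% intervals use it with the test's degrees of freedom. The test was checked on simulated data with 2-fold changes in genes that were not low in counts. Smaller changes, such as that of AEN, and genes with few counts, such as FAS, were not covered by that check.

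Replicates differed by more than counting noise (chi-square per degree of freedom 3.11 to 16.9). Transcript features came from GENCODE release 44 and promoters from RefSeq. The 10 genes and the lists were chosen with earlier results of these data known. Besides the 10 genes, the text names METTL3, MDM2, up to 4 called genes per list, those of lowest FDR, and the direct binding partners of the 10 products; GADD45A, DDB2, DDIT3, SESN2, marker genes, overlapping neighbours and untested genes were named after their values were seen, and 1 gene of the rule is not reported here. The alternatives were RLE or total count scaling, other filters, DESeq2 1.42.0, limma-voom (limma 3.58.1), a fit without the robust option, a block on the replicate number, leaving out each library, and only genes without overlaps.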

Additional observations from a re-analysis of the deposited data

How the results depend on the processing

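All 10 genes were lower at an FDR under 0.05 in 14 of the 15 alternatives, which were the other scalings and filters, DESeq2, limma-voom, the fit without the robust option, the replicate block and each of the 6 fits that left out a library, and none was higher in any. With the table limited to genes free of overlaps, 6 of the 10 remained to be tested and all 6 were lower; the drop from 10 to 6 comes from the smaller table. There, 26 of 49 tested genes of the other p53, apoptosis and stress response lists were called, 20 lower and 6 higher. In the main fit 43 of 73 such genes were called, 33 lower and 10 higher. Over all tested genes of the main fit, 19.2% were called lower and 18.6% higher. FAS, the gene with the fewest counts, came closest to the threshold, with an FDR of 0.0401 without siMETTL3 replicate 2. Deviations from the group means correlated at 0.040, 0.049 and 0.067 for equal replicate numbers, and at -0.064 to 0.026 for different numbers. The same-number values were thus small but the highest, and whether equal numbers mark pairs was not tested. With the replicate block, 10 of the 10 genes and 44 of the others were called. Over all tested genes the block gave 3119 lower and 3047 higher calls, against 2937 and 2849 without it. Leaving out 1 library at a time gave 35 to 46 of the others. Total count scaling shifted the median of all genes by less than 0.1, to 0.021. Depth limits FAS most, and TNFSF10 and FASLG were too low to be tested.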
